A study of Mus musculus with 199 samples.

Results

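T cells that had entered the liver of tumour-bearing mice treated with an antibody against PD-1 were compared with T cells circulating in the blood of the same mice. The 10 libraries, of 199 in the series, were chosen by title: 5 of liver T cells and 5 of blood T cells from mice labelled DEN ALIOS aPD1, with no CXCR2 inhibitor in the title. All mice were male wild-type C57BL/6 animals of an in-house colony. DEN is diethylnitrosamine, a liver carcinogen, and ALIOS is a diet rich in fat and sugar. Together they give liver cancer in a fatty, inflamed liver (NASH-HCC), and aPD1 is an antibody against the checkpoint receptor PD-1. Both sites therefore share the carcinogen, the diet and the antibody, and differ in where the cells were taken. How the cells of each site were prepared is not given in the sources used here. For every gene below, preparation and site therefore cannot be told apart. CD3-positive cells were sorted by flow cytometry, and total RNA was sequenced. The protocol names tumours beside blood as the source, whereas titles and tissue labels say liver, the word used here. The mice's age, the antibody's dose and timing, and the place within the liver from which cells came are not given in the sources used here.

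The library names carry an animal code, by which every liver library had a blood partner. Animals are numbered 1 to 5 below. By the prefix of these names, animals 1 and 2 form 1 batch and animals 3, 4 and 5 another, each with both of its libraries. What the prefix marks, such as a sequencing run or a preparation, is not given in the sources used here. The liver T cell libraries held 5605201 to 7670431 gene counts, and the blood T cell libraries 5644014 to 7089273. Levels are CPM, the counts per 1000000 gene counts after TMM scaling. Fold changes are log2 values of liver over blood, with standard errors, from an edgeR quasi-likelihood fit with the animal as a block. A gene rose or fell in liver when its Benjamini-Hochberg adjusted p over all 11889 genes tested was under 0.05.

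Circulating T cells are largely naive or recirculating cells. They carry the chemokine receptor CCR7 to enter lymph nodes, and the sphingosine receptor S1PR1 to leave them. T cells that settle in a tissue give up this programme, take up residency genes such as those for CD69 and RGS1, and after repeated antigen contact carry inhibitory receptors. PD-1 is one of these receptors, and an antibody against it blocks its signal without removing the gene's transcript. The liver of these mice also holds regulatory T cells, macrophages and hepatocytes, whose transcripts can appear in sorted material.

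The sort gave T cell RNA at both sites. *Cd3e*, which codes for a chain of the CD3 complex, stood at 780.1, 707, 483, 899 and 762 CPM in liver T cells of animals 1 to 5, against 522, 530.0, 519, 679.5 and 566 CPM in their blood T cells. It was higher in liver in all animals but animal 3 (0.35 ± 0.09, adjusted p = 0.0258), but lost the call when animal 1, 2, 4 or 5 was left out (adjusted p 0.0747 to 0.0964) and without the animal as a block (0.1). Of 16 tested T cell identity genes, which code for the receptor, its CD3 partners and proximal kinases, 4 rose and 0 fell. Leaving out 1 animal gave 2 (without animal 2 or 5) to 7 (without animal 3), and 0 rose without the block. The genes *Zap70* (0.46 ± 0.07, adjusted p = 0.00156), a receptor-proximal kinase, and *Trac* (0.46 ± 0.10, adjusted p = 0.00861), the T cell receptor alpha constant region, lost their calls without the block (adjusted p 0.085 and 0.08).

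*Cd4*, the helper and regulatory lineage coreceptor, varied widely between animals. It stood at 551, 270.4, 154, 915 and 623 CPM in liver T cells and 190.1, 264, 239.9, 698 and 347 CPM in blood T cells, and was not called (0.44 ± 0.34, adjusted p = 0.407), whereas without animals 2 and 3 it rose (0.91, adjusted p = 0.026). *Cd8a*, a chain of the cytotoxic lineage coreceptor, ranged from 561 to 767 CPM in liver and from 505 to 696 CPM in blood (0.18 ± 0.08, adjusted p = 0.154). Its partner chain *Cd8b1* was not called either (−0.23 ± 0.10, adjusted p = 0.131), though it fell when animal 2 was left out (−0.33, adjusted p = 0.0329). As a share of *Cd8a* plus *Cd4* CPM, *Cd8a* made up 57.2, 73.9, 79.0, 40.3 and 47.4% in liver and 78.6, 67.4, 71.2, 42.0 and 60.8% in blood. The mean difference was −4.42 percentage points with an SD of 12.7 (exact two-sided sign-flip permutation test over 5 animals, p = 0.5, where 0.0625 is the smallest p possible). Animal 4 had the lowest *Cd8a* share at both sites.

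**Figure D1:**
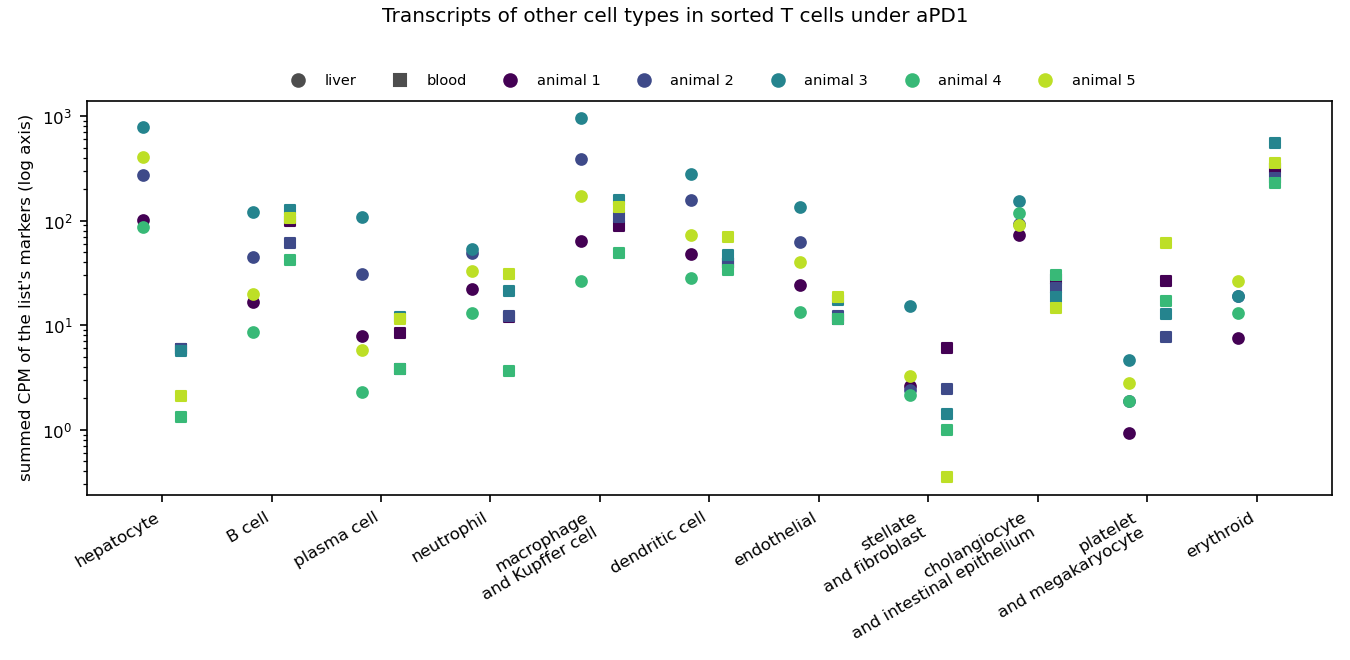
Summed CPM of marker genes of 11 other cell types in each library of liver T cells and blood T cells from 5 aPD1-treated animals, on a log axis, with a point for each library. Hepatocyte markers were higher in every liver library, erythroid and platelet markers were higher in every blood library, and macrophage markers overlapped between the sites.

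Transcripts of other cells differed between the sites. The 18 hepatocyte markers summed to between 87.0 and 779 CPM in liver libraries, against 1.32 to 5.94 CPM in blood libraries, with 6 of the 18 at 0 in every blood library. *Alb*, the albumin gene that defines hepatocytes, reached 55.6, 159, 435, 51.4 and 220.3 CPM in liver and at most 0.457 CPM in blood (9.28 ± 0.30, adjusted p = 3.17e-06). The 8 erythroid markers went the other way, at 7.53 to 26.7 CPM in liver and 229 to 557 CPM in blood. The haemoglobin gene *Hbb-bs* stood at 3.3 to 14.6 CPM in liver, against 98.1 to 294 CPM in blood (−4.32 ± 0.30, adjusted p = 0.000505). The 8 platelet markers summed to 0.924 to 4.6 CPM in liver and 7.77 to 61.0 CPM in blood.

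Macrophage RNA was uneven among the liver libraries. The 15 macrophage and Kupffer cell markers summed to 63.5, 391, 949.8, 26.6 and 173 CPM in liver T cells of animals 1 to 5, against 49.0 to 158 CPM in blood T cells, and 1 of the 15 was at 0 in all libraries. *Csf1r*, the receptor that defines these cells, stood at 8.32, 102, 257, 3.49 and 41.2 CPM in liver and 9.21 to 39.3 CPM in blood. Summed markers of 12 B cell genes were 8.59 to 120.4 CPM in liver and 42.3 to 127 CPM in blood, those of 10 dendritic cell genes 28.3 to 277 CPM and 33.5 to 70.6 CPM, those of 12 neutrophil genes 13.0 to 53.2 CPM and 3.62 to 30.7 CPM, and those of 11 endothelial genes 13.4 to 134 CPM and 11.4 to 18.7 CPM. The 6 plasma cell markers summed to 2.28 to 107.5 CPM in liver and 3.78 to 12.0 CPM in blood, and the 10 stellate cell markers to 2.15 to 15.3 CPM and 0.353 to 6.02 CPM. The 10 cholangiocyte and intestinal epithelium markers summed to 72.4 to 156 CPM in liver and 14.6 to 30.3 CPM in blood, without overlap. Of the 5 tested, 3 rose and 2 were not called, and the list holds *Spp1*, which is described below. Animal 3, followed by animal 2, had the highest liver sums of macrophage, dendritic, endothelial and B cell markers. The part of these transcripts in the results below was not tested, other than by leaving out both animals with over 50 CPM of *Csf1r* in liver (2 and 3) or all 3 animals whose liver library was above every blood library (2, 3 and 5). Both rules were chosen after seeing the data. In bulk libraries, fewer cells of a type and less RNA per cell cannot be told apart.

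Between the sites, 1483 genes rose in liver T cells (12.5% of those tested) and 1397 fell (11.8%), of which 404 and 293 differed by at least 2-fold. The median log2 fold change over all tested genes was 0.007. For 1511 genes (12.7%) the 5 liver and 5 blood libraries did not overlap, with liver above blood for 686 (5.77%) and below it for 825 (6.94%). The shares that rose, fell or did not overlap are the background for the list counts below. Within the prefix batch of animals 1 and 2, 617 rose and 485 fell, and within that of animals 3, 4 and 5, 1015 rose and 954 fell. Without animals 2 and 3, 1061 rose (8.84% of those tested) and 955 fell (7.96%), and with animals 1 and 4 alone, 720 (5.91%) and 598 (4.91%). Without the animal as a block, 995 rose (8.37%) and 993 fell (8.35%), and DESeq2 called 1119 higher (9.41%) and 841 lower (7.07%). Leaving out animal 5 lowered the number that fell to 853.

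**Figure D2:**
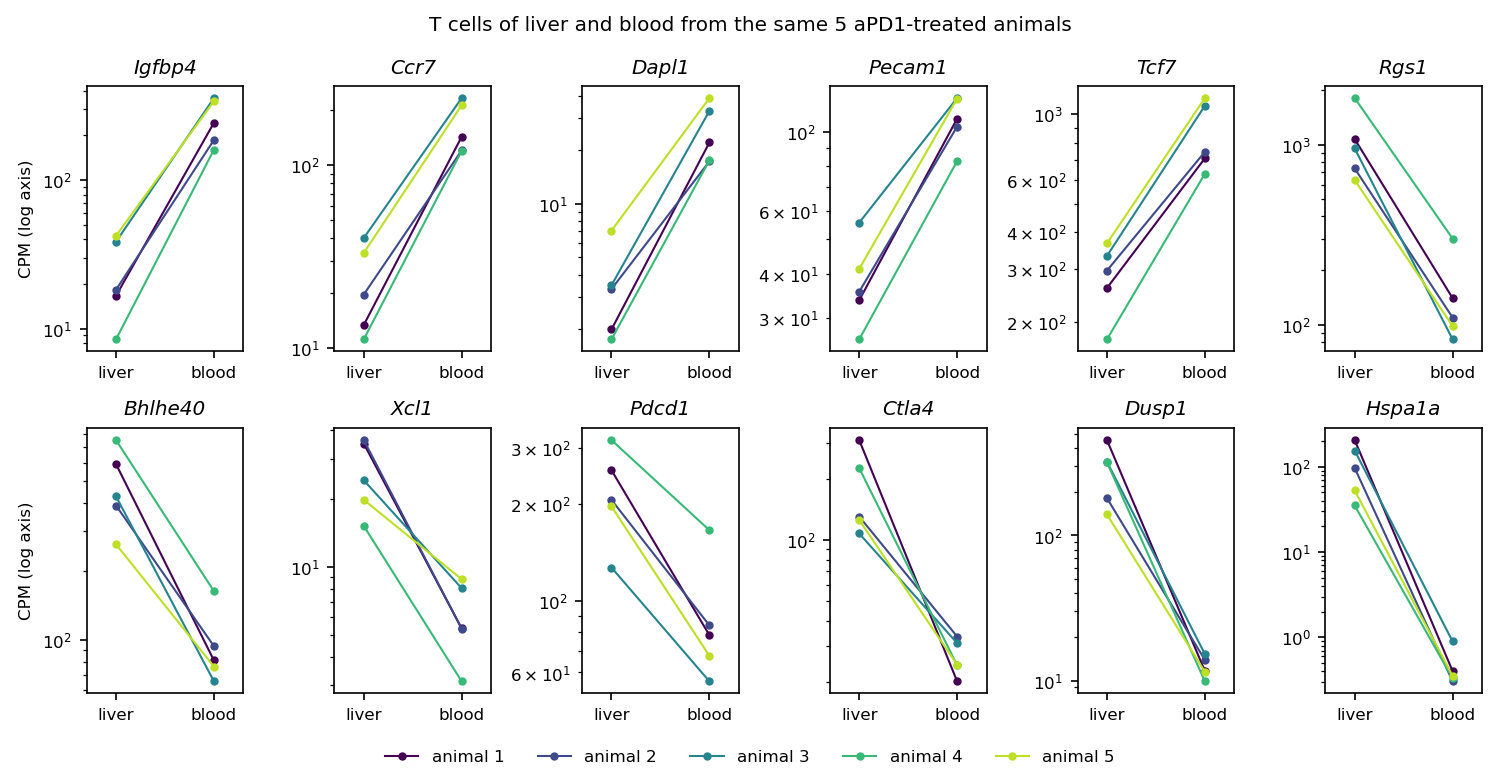
CPM (log axis) of 12 genes in liver and blood T cells of 5 aPD1-treated animals, with a line joining both libraries of an animal. Each line falls towards liver for *Igfbp4*, *Ccr7*, *Dapl1*, *Pecam1* and *Tcf7* and rises towards liver for the other 7 genes, and animal 4 has the highest *Pdcd1* and *Rgs1* at both sites.

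Genes of naive and recirculating T cells were lower in the liver almost without exception. Of 18 tested, 17 fell and 0 rose, with a median log2 fold change of −1.96. The same number, 17, had liver libraries that lay wholly below the blood libraries. *Ccr7*, the lymph node homing receptor, stood at 13.3, 19.6, 39.9, 11.1 and 33.1 CPM in liver T cells, against 143, 121, 233, 119.9 and 213 CPM in blood T cells. Every liver value was therefore below every blood value (−2.91 ± 0.16, adjusted p = 2.63e-05). *Tcf7*, the transcription factor of naive and stem-like T cells, fell less in proportion, with 259.6, 297, 333, 174 and 367 CPM in liver and 711, 748, 1069, 631 and 1135 CPM in blood (−1.59 ± 0.08, adjusted p = 4.5e-06). Animal 4 had the lowest *Ccr7* and *Tcf7* in liver.

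*Igfbp4*, a binding protein for insulin-like growth factors found in naive T cells (GRCm38 chr11:99041244-99054392), fell most in this group. Its levels were 16.6, 18.3, 38.5, 8.45 and 42.2 CPM in liver T cells, against 244, 187, 358, 161 and 341 CPM in blood T cells (−3.50 ± 0.18, adjusted p = 4.91e-05). *Dapl1*, a further marker of naive cells, was 1.74 to 7.06 CPM in liver and 17.2 to 38.8 CPM in blood (−2.91 ± 0.19, adjusted p = 1.18e-05). *Ly6c2*, which memory cells and monocytes carry, was the member that was not called, at 25.9 ± 14.8 CPM in liver and 38.8 ± 14.3 CPM in blood (SD, n = 5 each; adjusted p = 0.0906). The count of 17 was the same without animals 2 and 3 and with animals 1 and 4 alone, and leaving out 1 animal gave 17 to 18.

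Residency genes moved the opposite way. Of 17 tested, 12 rose and 0 fell, with a median of 0.94, and the libraries of the sites did not overlap for 7. *Rgs1*, a brake on chemokine receptor signalling that marks tissue T cells (chr1:144242296-144249242), stood at 1073, 737, 952, 1813 and 635 CPM in liver T cells, against 140.3, 109, 82.8, 300.5 and 98.1 CPM in blood T cells (2.89 ± 0.14, adjusted p = 7.66e-06). *Bhlhe40*, a transcription factor of tissue-resident cells, was 591, 389, 426, 753 and 262 CPM in liver and 81.0, 93.6, 65.6, 163 and 76.2 CPM in blood (2.32 ± 0.17, adjusted p = 0.000179). Animal 4 had the highest value of both genes at both sites, and the liver and blood values of neither gene overlapped. *Xcl1*, a chemokine that draws cross-presenting dendritic cells, was 15.2 to 36.3 CPM in liver and 3.12 to 8.82 CPM in blood (2.09 ± 0.25, adjusted p = 0.00111).

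**Figure D3:**
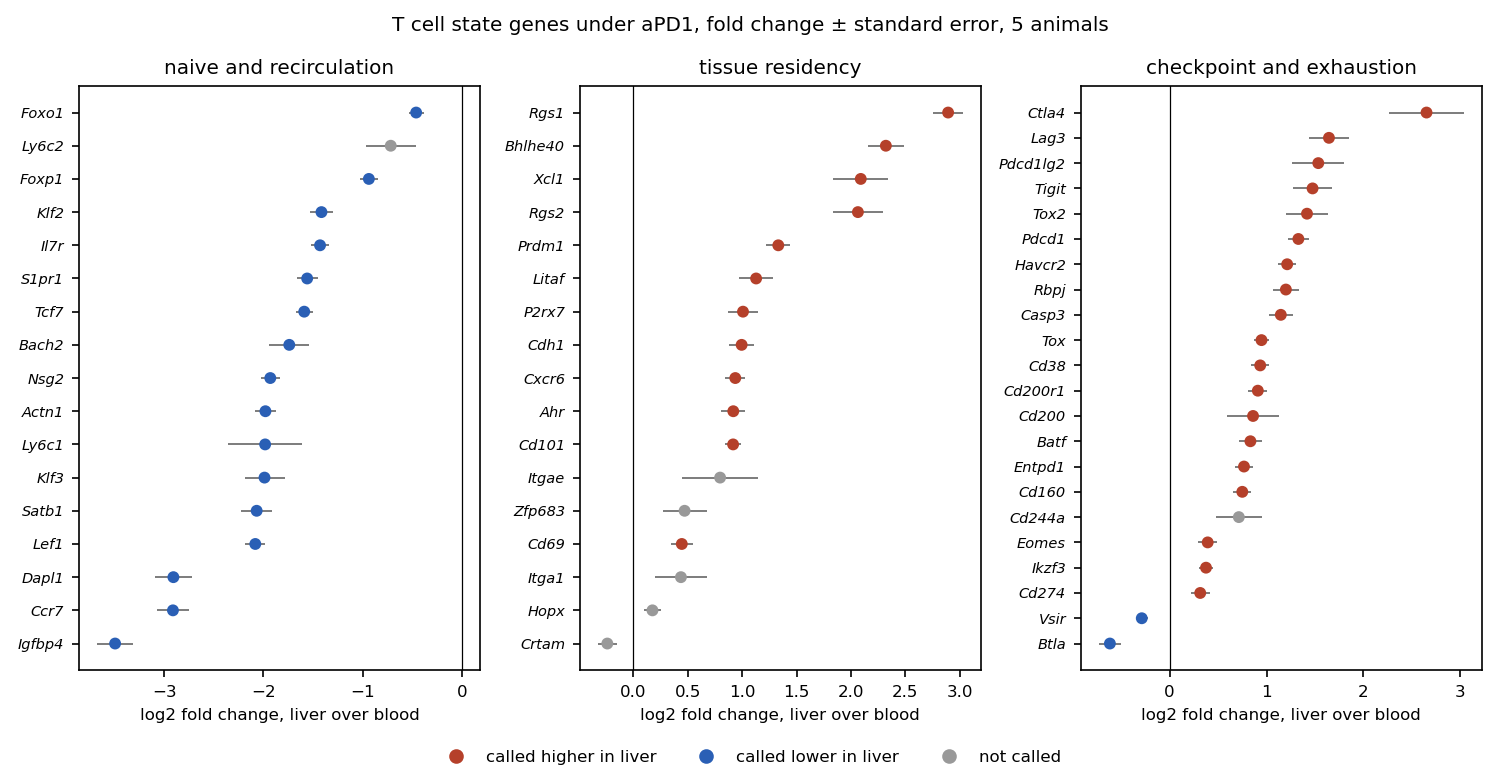
Log2 fold change of liver over blood, with standard error, for tested genes of the naive and recirculation (17 of 18 shown), tissue residency (17) and checkpoint and exhaustion (22) lists in 5 aPD1-treated animals, with colour showing whether a gene rose, fell or was not called. In the naive list 16 of the genes shown fell, in the residency list 12 rose, and in the checkpoint list 19 rose and 2 fell.

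Inhibitory receptors and exhaustion genes were raised in liver T cells in number but by moderate amounts. Of 22 tested, 19 rose (86.4%, against 12.5% of all genes tested) and 2 fell (9.09%, against 11.8%), with a median of 0.92. The libraries of the sites did not overlap for 3, near the share of 12.7% over all genes tested. *Pdcd1*, which codes for PD-1, the target of the antibody (chr1:94038305-94052553), stood at 255, 206, 127, 317 and 197 CPM in liver T cells and at 78.3, 84.0, 56.3, 166 and 67.6 CPM in blood T cells. It was higher in liver in 5 of 5 animals (1.33 ± 0.11, adjusted p = 6.26e-05), although the liver value of animal 3 was below the blood value of animal 4. *Ctla4*, an inhibitory receptor of regulatory and activated T cells, was 309, 130.2, 107, 225 and 125 CPM in liver and 20.2, 33.5, 31.1, 24.2 and 24.3 CPM in blood (2.65 ± 0.38, adjusted p = 0.00925). Its liver values lay wholly above those of blood.

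*Lag3*, which binds MHC class II, was 274, 147, 60.0, 403 and 153 CPM in liver and 53.9, 52.7, 29.3, 166 and 37.6 CPM in blood (1.64 ± 0.20, adjusted p = 0.00273). *Tigit*, a receptor for CD155, ranged from 86.3 to 265 CPM in liver and from 40.9 to 118 CPM in blood (1.47 ± 0.21, adjusted p = 0.00445). *Havcr2*, which codes for TIM-3, was 82.3 to 210.4 CPM in liver and 31.6 to 104 CPM in blood (1.21 ± 0.09, adjusted p = 3.27e-05). In all 3 genes animal 3 was lowest at both sites. The members that fell were *Btla*, an inhibitory receptor of naive T cells and B cells, with 27.1 to 53.0 CPM in liver and 46.9 to 66.7 CPM in blood (−0.62 ± 0.11, adjusted p = 0.00445), and *Vsir*, which codes for VISTA (−0.29 ± 0.06, adjusted p = 0.00823).

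*Cd274*, which codes for the PD-1 ligand PD-L1, differed little. It was 38.9 to 65.7 CPM in liver and 35.1 to 43.6 CPM in blood (0.32 ± 0.10, adjusted p = 0.0417), and lost its call when animal 1, 3 or 5 was left out (adjusted p 0.112 to 0.117). Without the animal as a block the list gave 12 higher and 1 lower, and *Lag3*, *Havcr2*, *Cd274* and *Vsir* lost their calls (adjusted p 0.1, 0.063, 0.11 and 0.064). Without animals 2 and 3, 18 rose, and *Vsir* and *Cd274* lost theirs (adjusted p 0.059 and 0.13).

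Cytotoxic effector genes rose by less. Of 18 tested, 12 rose and 2 fell, with a median of 0.49. *Gzmb*, which codes for granzyme B, stood at 425, 351, 406, 672 and 611 CPM in liver T cells and 377, 194, 199.8, 456 and 314 CPM in blood T cells (0.71 ± 0.12, adjusted p = 0.00455). *Ccl5*, a chemokine stored by cytotoxic cells, was 1971, 1903, 1268, 3920.3 and 2472 CPM in liver and 1049, 1116, 942, 2822 and 1378 CPM in blood (0.69 ± 0.09, adjusted p = 0.000678). For both genes each animal was higher in liver, but the ranges of the sites overlapped. *Srgn*, which codes for the granule proteoglycan serglycin, ranged from 246 to 322 CPM in liver and from 137 to 202 CPM in blood (0.70 ± 0.09, adjusted p = 0.000748).

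*S1pr5*, a sphingosine receptor of circulating effector and NK cells, was lower in liver, at 0.264, 2.67, 8.28, 1.07 and 1.57 CPM, than in blood, at 9.76, 11.1, 11.1, 12.2 and 16.2 CPM (−2.51 ± 0.62, adjusted p = 0.0345). Leaving out animal 1, 2, 4 or 5 ended its call (adjusted p 0.0723 to 0.106). The number of cytotoxic genes that rose was 3 without the block, 4 with animals 1 and 4 alone and 5 in a fit with the other treatments. *Gzmb* lost its call in each case (adjusted p 0.12, 0.17 and 0.15), as did *Ccl5* without the block (0.26).

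Of the cytokine genes called, most rose. Of 14 tested out of 25, 7 rose (50%, against 12.5% of all genes tested) and 2 fell (14.3%, against 11.8%), with a median of 0.91. A cytokine gene abundant in liver alone could pass the count filter, so those tested lean towards rises. With no filter 8 of 23 rose, 2 fell and 13 were not called. *Ifng*, which codes for interferon gamma, stood at 124, 49.3, 44.2, 154 and 70.9 CPM in liver T cells and 14.3, 8.53, 8.94, 39.8 and 7.94 CPM in blood T cells (2.58 ± 0.19, adjusted p = 0.000168). *Il10*, an anti-inflammatory cytokine, was 44.5, 16.3, 11.0, 95.3 and 32.1 CPM in liver and 1.6, 1.22, 0.894, 7.07 and 0.176 CPM in blood (4.28 ± 0.33, adjusted p = 0.000266). *Il21*, a cytokine of follicular helper and other CD4 cells, was 56.4, 12.7, 5.71, 64.1 and 27.1 CPM in liver and 2.14, 1.67, 0.358, 4.6 and 1.41 CPM in blood (3.98 ± 0.22, adjusted p = 7.04e-06). In all 3 genes the sites did not overlap, animals 1 and 4 were highest in liver and animal 3 lowest.

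*Areg*, which codes for the tissue repair factor amphiregulin, had 451 counts over the liver libraries and 3 over the blood libraries, a ratio of 137 on the CPM scale with an exact 95% counting interval of 46.6 to 667. *Il17a* had 130 counts in liver and 0 in blood, at least 39.5-fold higher against a floor of 3 counts over the blood group. It was too low for the test, and animal 1 with 11.5 CPM held most of it, against 0.933 to 2.55 CPM in the other liver libraries. The interval and the floor cover counting error only. *Il16*, a chemoattractant made by resting lymphocytes, was 226 to 288 CPM in liver and 325 to 353 CPM in blood (−0.41 ± 0.07, adjusted p = 0.00275). The other member that fell, *Ltb*, lost its call in a fit with the other treatments and without the block (adjusted p 0.069 and 0.146).

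Most of the regulatory T cell genes rose. Of 18 tested, 13 rose and 1 fell, with a median of 1.01, and the sites did not overlap for 13. In animals 1 and 2 alone 6 rose, and in animals 3, 4 and 5 alone 12, with medians of 1.42 and 0.82. Over all genes tested, 617 of 12399 and 1015 of 11865 rose in these fits. *Foxp3*, the transcription factor that defines these cells, stood at 131, 82.2, 69.9, 53.4 and 118 CPM in liver T cells and 28.6, 37.8, 45.6, 26.1 and 47.1 CPM in blood T cells (1.26 ± 0.22, adjusted p = 0.0098). Other members differed by more than *Foxp3*. *Ccr8*, a chemokine receptor of tissue regulatory T cells, was 43.6, 14.7, 10.7, 16.0 and 21.5 CPM in liver and 0.401, 1.37, 1.07, 2.47 and 3.18 CPM in blood (3.59 ± 0.53, adjusted p = 0.00631).

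*Penk*, the enkephalin precursor found in tissue regulatory T cells, was 222, 121, 35.0, 160.4 and 82.2 CPM in liver and 8.56, 14.8, 5.18, 23.5 and 6.53 CPM in blood (3.39 ± 0.33, adjusted p = 0.00192). *Itgb8*, an integrin chain that activates TGF-beta, was 19.0 to 68.5 CPM in liver and 5.12 to 8.72 CPM in blood (2.58 ± 0.35, adjusted p = 0.00495). Animal 1 had the highest liver value of *Foxp3*, *Ccr8*, *Penk* and *Itgb8*. *Gpr83*, a receptor found on regulatory T cells, was the exception and fell (−2.31 ± 0.29, adjusted p = 0.000583). With animals 1 and 4 alone 11 rose, and *Ccr8* and *Penk* lost their calls at larger fold changes of 4.35 and 3.66 (adjusted p 0.12 and 0.067).

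Genes of IL-17-producing and gamma delta T cells gave 7 that rose and 0 that fell of 16 tested, with a median of 0.78. Leaving out animal 5 gave 4. *Maf*, a transcription factor of IL-10- and IL-17-producing cells, stood at 494, 308, 235, 782 and 395 CPM in liver T cells and 105, 167, 95.5, 337 and 120.5 CPM in blood T cells (1.47 ± 0.20, adjusted p = 0.00398). *Tcrg-C4*, a constant region gene of the gamma chain, was 28.0 to 70.5 CPM in liver and 19.1 to 38.0 CPM in blood (0.85 ± 0.12, adjusted p = 0.00111). Both were higher in liver in every animal and lost their calls without the block (adjusted p 0.054 and 0.059), as did *Tcrg-C4* in a fit with the other treatments (0.08). Gamma constant genes are near-identical, so the split of their reads is uncertain.

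NK receptor and innate-like genes moved in both directions. Of 22 tested, 4 rose (18.2%, against 12.5% of all genes tested) and 5 fell (22.7%, against 11.8%), with a median of 0.06. Leaving out animal 2 gave 1 that rose and 3 that fell, leaving out animal 5 gave 2 and 4, without the block 1 and 1, and a fit with the other treatments 1 and 4. *Slamf6*, a receptor of stem-like T cells and NK cells, was 76.7, 78.9, 85.4, 57.8 and 78.7 CPM in liver and 157, 208, 196, 132 and 150.3 CPM in blood (−1.15 ± 0.08, adjusted p = 1.84e-05). Its relative *Slamf1* was higher in liver, at 67.0 ± 19.0 CPM against 35.1 ± 6.08 CPM in blood (SD, n = 5 each; 0.91 ± 0.11, adjusted p = 0.00049). *Klrb1c*, which codes for the NK receptor NK1.1, fell (−1.20 ± 0.25, adjusted p = 0.00861), but not without the block (adjusted p 0.14).

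Among invariant T cell receptor segments, 0 of 7 tested were called by edgeR and 0 by DESeq2, and 1 had an unadjusted p under 0.05. Those with the smallest p were *Traj18* of invariant NKT cells (0.67 ± 0.32, adjusted p = 0.169) and *Tcrg-V1* (0.52 ± 0.22, adjusted p = 0.122). *Traj18* was called in animals 3, 4 and 5 alone (1.34, adjusted p = 0.00354 by edgeR), and was −0.22 in animals 1 and 2 alone (adjusted p 0.566). The effective number of *Trbv* segments, the exponential of the Shannon entropy over 22 segments with 1107 to 2516 counts per library, was 12.8 ± 1.56 in liver and 14.1 ± 1.46 in blood. It was lower in liver in 4 of 5 animals (exact two-sided sign-flip permutation test, p = 0.125).

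Among the chemokine genes tested, ligands had a larger median change than receptors. Of 8 ligands tested out of 19, 4 rose and 1 fell, with a median of 3.01. A ligand abundant in liver alone could pass the count filter, so those tested lean towards rises. With no filter 5 of 19 rose, 1 fell and 13 were not called. The ligand that fell, *Ccl25*, lost its call with DESeq2 and without the block (adjusted p 0.164 and 0.124). *Ccl3*, a chemokine of activated T cells and macrophages, stood at 186, 119.5, 103, 481 and 149.9 CPM in liver T cells and 12.4, 11.3, 15.4, 55.6 and 13.6 CPM in blood T cells (3.32 ± 0.15, adjusted p = 7.66e-06). *Ccl4*, a close relative of it, was 195, 142, 93.7, 386 and 120.1 CPM in liver and 18.0, 11.9, 8.94, 30.6 and 11.5 CPM in blood (3.50 ± 0.08, adjusted p = 2.04e-08). The sites did not overlap, and animal 4 was highest at both. *Cxcl9*, a chemokine mostly of macrophages that draws CXCR3-carrying T cells, was 8.45, 20.3, 15.5, 2.68 and 15.8 CPM in liver and 0.802 to 3 CPM in blood (2.72 ± 0.44, adjusted p = 0.00495). Its call was lost with animals 1 and 4 alone (adjusted p 0.086).

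Of 13 chemokine and related receptors tested out of 19, 3 rose and 4 fell, with a median of −0.12, and leaving out animal 1 or 2 gave 1 that rose. *Ccr9*, a gut homing receptor, was 0.933 to 4.55 CPM in liver and 11.3 to 24.7 CPM in blood (−2.89 ± 0.24, adjusted p = 5.18e-05). *S1pr4*, a sphingosine receptor of lymphocytes, was 26.7 to 41.0 CPM in liver and 55.4 to 82.2 CPM in blood (−1.04 ± 0.09, adjusted p = 6.34e-05). *Ccr9* and *S1pr4* did not overlap between the sites. *Cxcr2*, the neutrophil receptor that the inhibitor in other groups of the study targets, had 12 counts over the liver libraries and 13 over the blood libraries and was not tested.

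Adhesion and migration genes split, with 8 that rose and 6 that fell of 25 tested. *Pecam1*, which codes for CD31 and is carried by naive T cells, was 33.7, 35.6, 55.6, 26.2 and 41.2 CPM in liver and 109, 103, 124, 82.7 and 124 CPM in blood (−1.53 ± 0.09, adjusted p = 7.66e-06). *Icam2* (−1.15 ± 0.12, adjusted p = 0.000186), an adhesion ligand, and *Itgb3* (−1.09 ± 0.10, adjusted p = 8.25e-05), an integrin chain also of platelets, fell beside the platelet markers described above. *Itgav*, an integrin chain, rose to 176 ± 35.9 CPM in liver, against 103 ± 18.6 CPM in blood (SD, n = 5 each; 0.77 ± 0.08, adjusted p = 0.00018). *Icam1*, an adhesion ligand induced by inflammatory signals, rose to 121 ± 11.1 CPM in liver, against 80.7 ± 10.5 CPM in blood (0.58 ± 0.09, adjusted p = 0.00166). Without the block 4 adhesion genes rose and 4 fell. With animals 1 and 4 alone 1 rose and 4 fell, and *Icam1* lost its call (adjusted p 0.072).

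**Figure D4:**
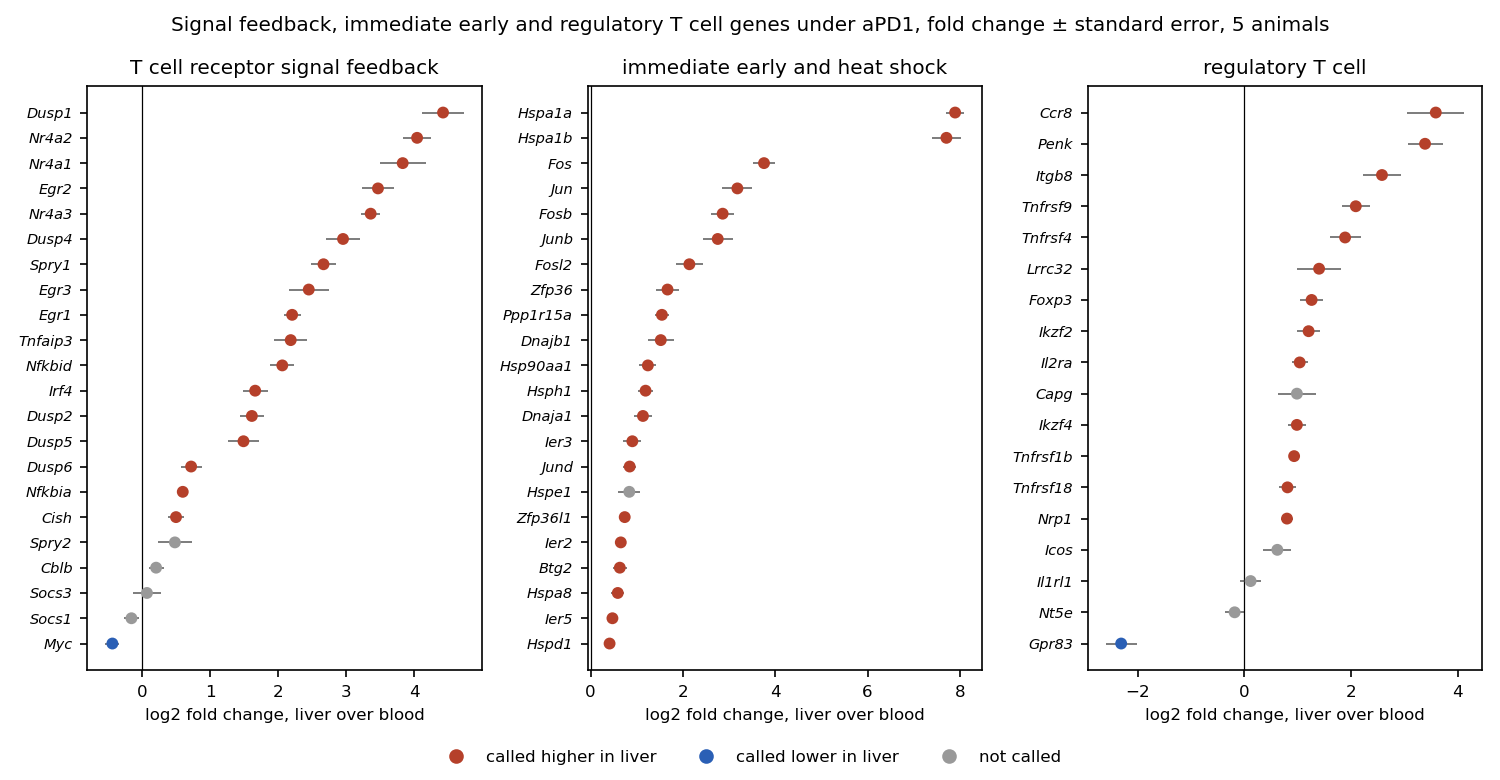
Log2 fold change of liver over blood, with standard error, for each tested gene of the T cell receptor signal feedback (22), immediate early and heat shock (22) and regulatory T cell (18) lists in 5 aPD1-treated animals, with colour showing whether a gene rose, fell or was not called. In these lists 17, 21 and 13 genes rose, and the heat shock genes *Hspa1a* and *Hspa1b* lie farthest to the right.

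Most genes induced by the T cell receptor, and the feedback inhibitors among them, rose in liver. Of 22 tested, 17 rose and 1 fell, with a median of 1.86, and the sites did not overlap for 15. *Dusp1*, a phosphatase that switches off MAP kinases (chr17:26505590-26562128), stood at 455, 181, 323, 319.8 and 139.8 CPM in liver T cells and 11.6, 13.9, 15.2, 9.87 and 11.5 CPM in blood T cells (4.42 ± 0.30, adjusted p = 0.000536). *Nr4a2*, a nuclear receptor induced by antigen, was 253, 147, 178, 418 and 80.0 CPM in liver and 9.09, 8.68, 12.5, 23.5 and 9 CPM in blood (4.04 ± 0.21, adjusted p = 6.15e-05). Its relative *Nr4a1*, which codes for NUR77, was 173, 113, 302, 113 and 51.0 CPM in liver and 6.58 to 11.6 CPM in blood (3.83 ± 0.34, adjusted p = 0.00144). Animal 5 had the lowest liver value of all 3 genes. *Myc*, a growth regulator, was the member that fell (−0.44 ± 0.10, adjusted p = 0.0139), but not without animal 4 or 5 (adjusted p 0.0529 and 0.0654) or without animals 2 and 3 together (0.062).

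Immediate early and heat shock genes rose almost throughout. Of 22 tested, 21 rose and 0 fell, with a median of 1.22, and the sites did not overlap for 17. *Fos*, a subunit of the AP-1 transcription factor, was 66.4, 42.0, 185, 29.3 and 23.7 CPM in liver and 4.81, 3.65, 9.3, 1.32 and 4.06 CPM in blood (3.76 ± 0.24, adjusted p = 8.25e-05). *Hspa1a*, an inducible chaperone of the HSP70 family (chr17:34969190-34972156), stood at 206, 96.9, 155, 35.2 and 52.8 CPM in liver T cells, and its blood values were 0.401, 0.305, 0.894, 0.329 and 0.353 CPM (7.90 ± 0.19, adjusted p = 2.04e-08). *Hspa1b* was 398, 178, 248, 67.8 and 75.7 CPM in liver and 0.493 to 1.41 CPM in blood (7.71 ± 0.32, adjusted p = 2.93e-05). These are near-identical copies, so the split of reads between them is uncertain. Both were highest in liver in animals 1 and 3 and lowest in animal 4. How the cells of each site were prepared for the sort is not given in the sources used here, and preparation and site cannot be told apart.

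Of the genes that moved most in these groups, 3 are shown with the RefSeq sequence of the 250 bases before their start (GRCm38.p6, minus strand), since they hold a response element. Capitals mark a heat shock element of 2 units in *Hspa1a* and *Hspa1b*, and a cAMP response element in *Dusp1*.
*Hspa1a* chr17:34972157-34972406: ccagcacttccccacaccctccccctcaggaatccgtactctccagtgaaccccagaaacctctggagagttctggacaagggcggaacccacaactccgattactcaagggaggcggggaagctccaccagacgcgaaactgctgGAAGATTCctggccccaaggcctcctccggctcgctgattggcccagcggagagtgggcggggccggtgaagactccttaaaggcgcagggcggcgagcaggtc
*Hspa1b* chr17:34959239-34959488: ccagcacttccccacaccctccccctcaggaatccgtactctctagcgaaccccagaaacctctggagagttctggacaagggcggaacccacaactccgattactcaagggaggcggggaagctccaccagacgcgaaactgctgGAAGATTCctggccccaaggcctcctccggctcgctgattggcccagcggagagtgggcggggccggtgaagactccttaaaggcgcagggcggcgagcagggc
*Dusp1* chr17:26508473-26508722: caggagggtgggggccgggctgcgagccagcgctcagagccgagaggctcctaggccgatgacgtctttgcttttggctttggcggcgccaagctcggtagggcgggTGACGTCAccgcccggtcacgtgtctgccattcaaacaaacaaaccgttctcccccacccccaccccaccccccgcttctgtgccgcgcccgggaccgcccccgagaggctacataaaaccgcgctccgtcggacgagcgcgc

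The windows of *Hspa1a* and *Hspa1b* were identical at 247 of 250 bases. The element GAANNTTC or TTCNNGAA, searched on both strands, was present in 12.9% of 27025 promoters, and in 6 of the 18 promoters found for immediate early and heat shock genes that rose (33.3%). The longer heat shock element of 3 units, searched the same way, was present in 0.4% of all promoters and in 0 of these 18. The full element TGACGTCA was present in 1.62% of all promoters, in 2 of these 18 and in 1 of the 14 found for feedback genes that rose, *Dusp1*. The windows follow RefSeq's starts, and that of *Dusp1* lies inside the wider GENCODE span given above. A match is a description of the letters in this window.

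Proliferation genes rose in part. Of 32 cell cycle genes tested, 16 rose and 0 fell, with a median of 0.77, and the other 16 were not called. *Mki67*, the marker of cycling cells, stood at 517, 313, 269, 384 and 499 CPM in liver T cells and 148, 198, 146, 221 and 226 CPM in blood T cells, with no overlap (1.06 ± 0.17, adjusted p = 0.00509). *Cdk1*, the mitotic kinase, was 11.3 ± 2.18 CPM in liver and 5.31 ± 2.46 CPM in blood (SD, n = 5 each; 1.15 ± 0.19, adjusted p = 0.00274). The count depended on single animals, with 9 without animal 2, 7 without animal 4, 7 without animal 5 and 21 without animal 3. The medians of these fits were 0.84, 0.74, 0.77 and 0.89 in that order. Without animal 1, 13 rose, with a median of 0.58. In animals 1 and 2 alone 1 rose, and in animals 3, 4 and 5 alone 7, with medians of 1.08 and 0.61.

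Metabolic genes changed in part. Of 21 glycolysis and hypoxia genes tested, 8 rose and 1 fell, with a median of 0.27. *Hk2*, a hexokinase of activated cells, was 12.4, 25.3, 41.0, 13.3 and 20.1 CPM in liver and 5.92 to 8.29 CPM in blood (1.54 ± 0.20, adjusted p = 0.000794). *Hif1a*, the oxygen-sensing transcription factor, was 221 to 289 CPM in liver and 109.5 to 156 CPM in blood (0.86 ± 0.11, adjusted p = 0.000642). *Pdk1*, a kinase that holds pyruvate back from mitochondria, fell to 34.2, 39.8, 46.9, 30.5 and 46.6 CPM in liver, against 141, 112, 154, 112 and 147 CPM in blood (−1.75 ± 0.09, adjusted p = 3.36e-06). The sites did not overlap for any of these 3 genes.

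Of 23 lipid handling genes 6 rose and 2 fell, with a median of 0.05, and leaving out animal 2 or 5 gave 3 and 2 that rose. *Fabp5*, a fatty acid carrier of tissue T cells and macrophages, was 16.2, 12.8, 14.0, 6.04 and 10.2 CPM in liver and 3.12 to 4.94 CPM in blood (1.62 ± 0.22, adjusted p = 0.000882). Without animals 2 and 3 the number of lipid genes that rose was 2. Of 25 interferon-stimulated genes 3 rose (12%, against 12.5% of all genes tested) and 2 fell (8%, against 11.8%), with a median of 0.09. *Mx1*, an antiviral GTPase, was the largest rise (0.80 ± 0.12, adjusted p = 0.00126, and 0.066 without the block), and *Rsad2*, which codes for viperin, fell to 14.0 ± 4.83 CPM in liver, against 27.4 ± 5.91 CPM in blood (SD, n = 5 each; adjusted p = 0.00128). In the fit with all 4 treatments, *Rsad2* lost its call (adjusted p 0.17). Of 16 antigen presentation genes 1 rose by edgeR, *Tap1*, a peptide transporter (0.19 ± 0.06, adjusted p = 0.0427), and its call was lost when any of animals 1, 2, 3, 4 and 5 was left out, where the fold change was 0.17 to 0.21.

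The extremes of the comparison were transcripts of other cell types in part. Of the 10 largest rises among genes of at least 10 CPM whose sites did not overlap, 8 were genes of secreted hepatocyte proteins and 2 were *Hspa1a* and *Hspa1b*. *Ahsg*, which codes for fetuin-A, had 597 counts in liver and 0 in blood, at least 181-fold higher against a floor of 3 counts over the blood group. Of the 10 largest falls, 7 were erythroid genes, among them *Alas2* (−4.08 ± 0.23), the first enzyme of haem synthesis in red cells. The other falls were *Igfbp4*, *Sorcs2*, a sorting receptor, at 1.13 CPM in liver and 11.5 CPM in blood (−3.45 ± 0.30), and *Slc6a19*, an amino acid transporter, at 1.67 CPM in liver and 15.2 CPM in blood (−3.25 ± 0.26). A further rise stood apart from its list. *Il1r2*, a decoy receptor for interleukin-1 carried by neutrophils and regulatory T cells, was 14.4, 14.5, 12.3, 5.37 and 12.7 CPM in liver and 0.401 to 1.25 CPM in blood (3.97 ± 0.27, adjusted p = 1.84e-05), while 3 of the 4 tested neutrophil markers were not called. *Spp1*, which codes for osteopontin and is made by cholangiocytes, macrophages and activated T cells, was 44.4, 43.7, 90.7, 86.3 and 64.8 CPM in liver and 1.25 to 8.72 CPM in blood (4.24 ± 0.34, adjusted p = 0.000584). In liver it was highest in animals 3 and 4, of which animal 3 had the most *Csf1r* and animal 4 the least. Which cells the *Spp1* transcripts came from was not tested.

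The liver-blood difference was then set beside that of other DEN ALIOS mice in a joint fit of 22 animals with both sites: 5 given aPD1, 5 given the CXCR2 inhibitor (CXCR2i) with aPD1, 6 given CXCR2i and 6 given neither, called untreated here. The treatment labels add an aPD1 isotype, a control antibody, for 4 of the CXCR2i animals and not for the other 2, and vehicle for 1 of the untreated animals. Of 13430 genes tested, 1647 rose (12.3%) and 1521 fell (11.3%) under aPD1, against 1503 (11.2%) and 1492 (11.1%) under the combination, 3050 (22.7%) and 2736 (20.4%) under CXCR2i alone and 2996 (22.3%) and 2524 (18.8%) in untreated mice. In either direction these were 23.6% of genes under aPD1, 22.3% under the combination, 43.1% under CXCR2i and 41.1% in untreated mice. These are counts within each treatment and do not test whether the treatments differ. Of 12 macrophage and Kupffer cell markers tested, 5 rose under aPD1, 4 under the combination, 7 under CXCR2i and 11 in untreated mice. Their medians were 3.10, 2.18, 3.91 and 7.02 in that order. A marker abundant in a single group of libraries could pass the count filter of this fit, so those tested lean towards rises. In the fit of the aPD1 libraries alone, 9 of these markers were tested, 4 rose, and the median was 1.38. The part of such transcripts in the counts of each treatment was not tested. Untreated and aPD1 animals shared no library-name prefix, so treatment and prefix batch cannot be told apart in that comparison, whereas 4 of the 6 CXCR2i animals carried the prefixes of the aPD1 animals.

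**Figure D5:**
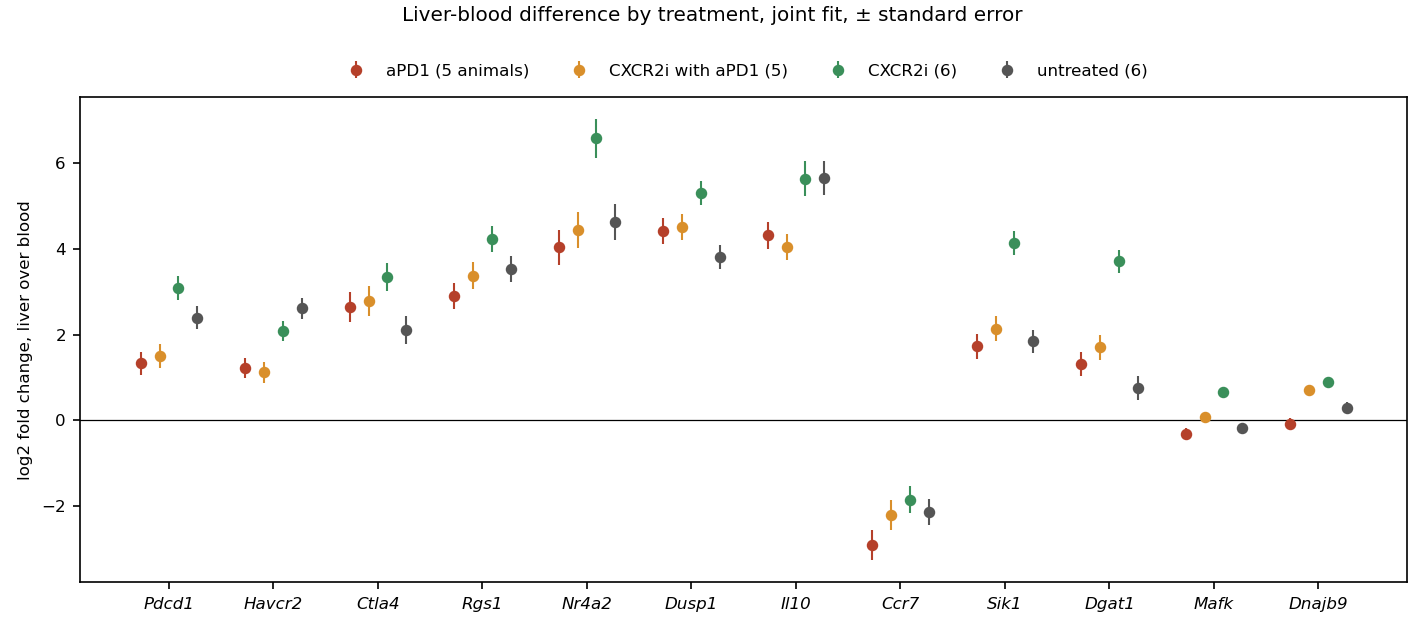
Log2 fold change of liver over blood, with standard error, for 12 genes under aPD1 (5 animals), CXCR2i with aPD1 (5), CXCR2i (6) and no treatment (6), from the joint fit. *Pdcd1* lies at 1.33 under aPD1 and 1.51 under the combination, against 3.10 under CXCR2i and 2.40 in untreated mice, and *Sik1* and *Dgat1* lie highest under CXCR2i.

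Naive genes fell in like number in all treatments, 17 of 18 under aPD1, 17 under the combination, 18 under CXCR2i and 17 in untreated mice. Checkpoint genes rose in number 16 of 22 under aPD1, 17 under the combination, 16 under CXCR2i and 20 in untreated mice, with medians of 0.93, 1.02, 1.03 and 1.71. Cell cycle genes rose in number 18 of 32, 21, 29 and 30 in the same order, with medians of 0.77, 0.80, 1.16 and 1.54. Over all genes tested, 12.3, 11.2, 22.7 and 22.3% rose and 11.3, 11.1, 20.4 and 18.8% fell in that order. Whether the lists differ between treatments was not tested. *Pdcd1* averaged 210.3 CPM in liver and 85.9 CPM in blood under aPD1, 200.2 and 66.8 CPM under the combination, 176.6 and 22.2 CPM under CXCR2i, and 137.4 and 26.2 CPM in untreated mice. Its liver-blood difference was smaller under aPD1 than under CXCR2i by 1.76 ± 0.38 and than in untreated mice by 1.07 ± 0.38 on the log2 scale, and neither difference passed the test (adjusted p = 0.0726 and 0.656).

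Tested gene by gene, the liver-blood difference under aPD1 differed from that under CXCR2i for 7 genes (0.0521% of those tested), all of them smaller under aPD1. The inducible kinase gene *Sik1* was 63.7 ± 23.0 CPM in liver and 18.6 ± 3.41 CPM in blood under aPD1, against 262.6 ± 122 CPM in liver and 13.9 ± 3.75 CPM in blood under CXCR2i (SD, n = 5 and 6; difference of log2 fold changes −2.41 ± 0.38, adjusted p = 0.032). *Dgat1*, an enzyme of triglyceride synthesis, was 27.2 ± 8.73 CPM in liver and 10.7 ± 2.85 CPM in blood under aPD1, against 134 ± 86.6 CPM and 9.1 ± 2.24 CPM under CXCR2i (−2.39 ± 0.39, adjusted p = 0.032). *Mafk*, a small MAF transcription factor, and *Dnajb9*, a chaperone of the endoplasmic reticulum, differed by −0.98 ± 0.17 and −0.97 ± 0.17 (adjusted p = 0.039 for each). The 7 calls were few and unsteady. Leaving out aPD1 animal 2 or 5 gave 0, animal 4 gave 3, animal 1 gave 6 and animal 3 gave 18, a fit of both treatments alone gave 0, and DESeq2 gave 107. Without the 4 animals labelled as isotype, which leaves 2 CXCR2i animals, 108 genes differed, 19 of them larger and 89 smaller under aPD1.

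Against untreated mice and against the combination, 0 genes differed by edgeR in the joint fit. A fit of aPD1 and untreated animals alone called 4 genes, all of them smaller under aPD1. At an unadjusted p under 0.05 there were 946 genes against untreated mice and 260 against the combination, and DESeq2 called 7 and 0. The largest of those against untreated mice with the smallest p were *Dntt*, which adds bases at receptor junctions in developing lymphocytes (−5.04 ± 0.98), and *Cd200r2*, a myeloid receptor relative (−2.69 ± 0.54), both with adjusted p = 0.294. In the fit of these 2 treatments alone both were called, *Dntt* at −5.03 (adjusted p = 0.0263) and *Cd200r2* at −2.73 (adjusted p = 0.0457), as they were by DESeq2 (adjusted p 0.00176 and 0.0110). *Dntt* was 0.15 ± 0.154 CPM in liver and 2.68 ± 1.15 CPM in blood under aPD1, against 10.7 ± 7.78 CPM and 4.9 ± 1.34 CPM in untreated mice. A p that misses the threshold does not show that the treatments act alike.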

How the data were processed

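Whole-number read counts per gene were deposited by the authors as 1 table of 37713 Ensembl genes for all 199 libraries, with no normalization. Per the labels' protocols, CD3-positive cells were sorted and libraries made with a stranded total RNA kit for low input. The submitters' processing notes list the build GRCm38 and, with no settings, HTSeq 0.11.2, HISAT2 2.1.0, Trim Galore 0.6.4 and FastQC 0.11.8. The annotation release and the strand used for counting are not given in the sources used here. Hence overlapping, antisense and near-identical genes are uncertain. The 5 HTSeq summary rows (67.3% of entries in these 10 libraries) were left out. Symbols were matched by Ensembl identifier, and 106 genes without one held 0.0266% of counts. Gene coordinates come from GENCODE vM21.

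The members and gene lists were chosen with earlier results of these data known. Genes were tested with edgeR 4.0.16 in R 4.3.3 (TMM, filterByExpr with minimum count 10 and total 15, robust quasi-likelihood fit) with the animal as a block, and adjusted by Benjamini-Hochberg at 0.05. Pairing rests on the animal code in the library names, since title numbers do not pair. Deviations from the site means correlated by 0.279 on average within animals (0.0492 to 0.578) and by −0.0715 between animals. Deviations cancel out within a site, so the second value largely follows from the first and is no separate check of the pairing. Chi-square over its degrees of freedom was at least 11.4 for all 20 library pairs within sites, so no library was a copy within sampling noise. Treatments were compared by interaction terms in a joint fit of 22 animals, and single values by exact sign-flip permutation. Alternatives were no block, no filter, RLE factors, DESeq2 1.42.0, a 2-fold minimum, single library-name prefixes, the joint fit, left-out animals and labels, and the *Csf1r* rules.

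Named genes were *Cd3e*, *Cd4*, *Cd8a*, *Cd8b1*, *Pdcd1*, *Cd274* and *Cxcr2*; up to 3 called members per list and direction with the largest change and 10 or more CPM on average in the higher site, or 2 with the smallest p; the 2 most abundant markers of each other cell type; the 10 largest rises and falls without overlap, leaving out predicted, receptor segment, immunoglobulin, ribosomal and mitochondrial genes; and the 4 interaction genes with the smallest p per direction. *Tcf7*, *Foxp3*, *Ifng*, *Havcr2* and *Il17a* were added after seeing the values. The rule's genes are printed in part, and some are not reported here. On simulated counts for liver against blood, edgeR found 76% of genes changed 2-fold and 96% of those changed 4-fold, with 4.44% false calls, and DESeq2 72% and 94%, with 8.29% false calls. For the difference between aPD1 and untreated mice, edgeR found 33% of 2-fold and 91% of 4-fold changes. These simulations changed 200 genes, of 11764 and 13198 tested, and set the spread by a fixed formula of the mean count. Uneven transcripts of other cells were not simulated, so the rates may differ for the real counts. A count of 0 allows up to 3 counts. Figures were drawn with matplotlib 3.10.9.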

Additional observations from a re-analysis of the deposited data

Results flagged for a closer look

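In groups of 5 libraries, the highest or lowest library was marked where its gap to the nearest of the others was over 0.71 of the group's range. Of 280 groups examined 30 were marked. Among independent, normally distributed values the rule marks about 1 in 20 groups. The CPM used here are skewed, some rest on few counts, and the genes share their libraries. That rate therefore does not hold here, and the number marked cannot be set against it.

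Animal 4 accounted for most of them. Its liver T cells were highest in *Ccl3* (481 CPM), *Runx3* (386 CPM), a transcription factor of cytotoxic cells, and the chemokine *Ccl25* (14.8 CPM), and lowest in *Il1r2* (5.37 CPM). Its blood T cells were highest in *Pdcd1* (166 CPM), *Lag3* (166 CPM), *Havcr2* (104 CPM), *Rgs1* (300.5 CPM), *Bhlhe40* (163 CPM), *Nr4a2* (23.5 CPM), *Ifng* (39.8 CPM), *Il10* (7.07 CPM), *Ccl3* (55.6 CPM), *Ccl5* (2822 CPM), *Runx3* (315 CPM) and the sterol acyltransferase *Soat1* (79.6 CPM). The same animal had the lowest *Cd8a* share at both sites, 40.3% in liver and 42.0% in blood.

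The liver T cells of animal 3 were highest in *Fos* (185 CPM), in the B cell gene *Bank1* (16.4 CPM), in the plasma cell gene *Jchain* (81.3 CPM) and the stellate cell gene *Reln* (8.1 CPM), and in the summed plasma cell (107.5 CPM) and stellate cell (15.3 CPM) markers. This library also had the most *Csf1r* (257 CPM). Those of animal 1 were highest in *Il17a* (11.5 CPM).

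Other marked values rest on few counts in blood T cells. They were *Apoa1* in animal 1 (2.14 CPM), *Fgb* (0.358 CPM), *Fgg* (0.179 CPM) and *Hspa1a* (0.894 CPM) in animal 3, and *Gc* (0.176 CPM), *Cxcr2* (1.59 CPM) and a lowest *Cp* (0 CPM) in animal 5.

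The liver-blood difference was smaller under aPD1 than under CXCR2i, by an interaction test, for *Sik1* (−2.41), *Dgat1* (−2.39), *Mafk* (−0.98) and *Dnajb9* (−0.97 on the log2 scale).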

How the results depend on the processing

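Of 120 named genes tested between liver and blood, 106 were called, none of which reversed under any alternative, and 55 lost the call in at least 1 other than the 2-fold minimum: 28 without the block, 20 with 1 animal left out, 38 and 18 in single prefix batches, 26 with animals 1 and 4 alone, 15 without animals 2 and 3, 13 in the joint fit, 8 with DESeq2, 6 with no filter and 1 with RLE factors. The numbers that rose and fell were 90 and 71 against a 2-fold minimum, 617 and 485 in animals 1 and 2 alone, 720 and 598 with animals 1 and 4 alone, and 1014 to 1343 and 853 to 1191 with 1 animal left out. DESeq2 gave 841 that fell. Without the replicate block, that is without pairing by animal, 995 rose and 993 fell. Genes that differed from CXCR2i (7) numbered 107 with DESeq2, 0 with both treatments alone, 2 without animals 2 and 3, 108 without libraries labelled as isotype and 0 to 18 with 1 aPD1 animal left out. Those that differed from untreated mice (0) numbered 7 with DESeq2 and 4 with both treatments alone. The causes were not tested.

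Genes that reversed were not called in the comparison reported. In animals 1 and 2 alone, *Cd8b1* gave 0.050, *Lgals4* −0.17, *Mmp9* −0.19, *Pou2af1* 0.30 and *Traj18* −0.22. Without animals 2 and 3, and with animals 1 and 4 alone, *Csf1r* gave −0.77 and −1.44, *Fcgr2b* −0.73 and −1.47, *Flt3* −0.95 and −2.01, *Lyz2* −1.19 and −1.79, and *Mmp9* −0.033 and −0.33. Both rules left out animals by their liver *Csf1r*. The lower *Csf1r* thus follows from the choice, as may lower values of genes that vary with it. *Lyz2* gave −0.060 with DESeq2, and *Pou2af1* 0.16 without the block. With 1 animal left out, *Lyz2* ran from −0.39 to 0.66, *Csf1r* from −0.036 to 1.12, *Mmp9* from −0.0026 to 0.38 and *Pou2af1* from −0.59 to 0.21. Few counts stand behind a level below 1 CPM.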
